A study of Homo sapiens with 8 samples.

Results

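The transcriptome of untreated SYK-KO cells, in which the kinase gene SYK was disrupted, was compared with that of untreated SYK-WT cells, in 4 of the 8 libraries of the series, 2 per genotype. All cells were OVISE, a cell line that was established from a clear cell carcinoma of the human ovary. Every locus with at least 1 FPKM (a count of sequenced fragments scaled by transcript length and by library size) in at least 2 of the 8 libraries was taken, which gave 12112 of the 27757 loci in the deposited table. The other 4 libraries come from SYK-KO EGF and SYK-WT EGF cells, which received epidermal growth factor at 50 ng/ml for 24 h. They served as further libraries of the same 2 cell populations. Per the labels' protocols, SYK was disrupted with a Cas9 nickase and 2 guides, followed by puromycin selection, isolation of single-cell clones and a check of the protein by immunoblot. The labels do not say how many clones the SYK-KO libraries hold, nor whether the SYK-WT cells are a clone or the parental population. A difference between the genotypes therefore cannot be told apart from a difference between clones. No label says that the 2 libraries of a group come from separate cultures, so the p-values cover only the variation from one library to the next, which may be technical.

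SYK encodes a cytoplasmic tyrosine kinase whose paired SH2 domains dock on phosphorylated receptor tails, as in B cells and mast cells, where it passes the signal on to phospholipase C gamma, VAV and PI3 kinase proteins. Epithelial cells and carcinomas express it too. EGF acts through EGFR and its ERBB relatives, which signal to the RAS-ERK and PI3K-AKT-mTOR pathways. The guides show where the gene was cut, so they are printed first, with the protospacer adjacent motif (PAM) of each site in capitals:
SYK antisense-strand guide: cggacagggcgaagccacccAGG
SYK sense-strand guide: cacaccactacaccatcgagCGG
SYK exon target: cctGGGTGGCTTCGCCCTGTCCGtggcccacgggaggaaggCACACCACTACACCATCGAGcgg
The last sequence is the sense strand at chr9:90844039-90844102 of GRCh38 (GENCODE release 29 transcripts), in which capitals mark the bases matched by the guides, the first of them as its reverse complement. Both sites lie in the coding part of exon 2 of SYK, in 5 annotated transcripts, and are 18 bases apart.

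SYK itself, at chr9:93563962-93660842 of hg19, the build of the deposited table, was still transcribed in every library. It had 3.11 and 3.43 FPKM in SYK-KO cells, against 4.91 and 5.301 FPKM in SYK-WT cells (log2 fold change -0.52, SE 0.09, limma adjusted p = 0.0029). It had 2.796 and 3.16 FPKM in SYK-KO EGF cells, against 3.88 and 3.62 FPKM in SYK-WT EGF cells. The SYK-KO libraries were lower than the SYK-WT libraries in each pair of groups, without overlap. A small lesion in exon 2 leaves the rest of the transcript to be counted, so the SYK level does not check the knockout.

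The deposited values carry no read counts, so the depth behind them is unknown. Library medians lay between -0.019 and 0.014 of their common centre on the log2(FPKM + 1) scale. The 2 SYK-KO libraries differed by a median of 0.067 per locus on that scale and the 2 SYK-WT libraries by 0.150. All 6 epithelial markers were detected, with summed levels of 9968 and 9110 FPKM in SYK-KO cells, against 7030 and 7947 FPKM in SYK-WT cells. All 5 clear cell markers, NAPSA, PAX8, ANXA4 and GPX3 among them, were detected, with summed levels of 614 and 638 FPKM in SYK-KO cells, against 619.8 and 731 FPKM in SYK-WT cells. The part of the epithelial sums in the results was not tested. Sums of 5 blood markers (PTPRC, CD14 and SPI1 among them), 3 endothelial and 4 fibroblast markers were 0.514 FPKM or less in every untreated library, and 3 of the 4 fibroblast markers were listed at 0. In a wider list of 15 haematopoietic markers, 2 reached the test. LAPTM5 had 2.78 and 2.97 FPKM in SYK-KO cells, against 4.52 and 4.37 FPKM in SYK-WT cells, and CD68, a lysosomal protein of many cell types, had 16.5 and 15.4 FPKM in SYK-KO cells, against 12.3 and 12.3 FPKM in SYK-WT cells. Their part in the results was not tested.

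The genotypes differed at many loci, mostly by small amounts. With limma on log2(FPKM + 1) and Benjamini-Hochberg adjustment over all loci tested, 4902 of 12112 loci (40.5%) passed an adjusted p of 0.05, 2461 higher in SYK-KO (20.3%) and 2441 lower (20.2%). Of these calls, 62.6% were under 0.5 on the log2 scale, and 363 reached 1 (207 higher, 156 lower). The 2 libraries of one genotype lay wholly above those of the other at 70.1% of loci, so non-overlap of 2 against 2 libraries is a low bar here. A q-value under 0.05 in the authors' deposited table was given to 2609 of these loci (21.5%), and 2536 of those passed here in the same direction. Only 51.7% of the calls made here had such a q-value. The count of calls came to 2460 (20.3%) without SYK-KO replicate 1 and to 2841 (23.5%) without SYK-KO replicate 2, and counts of members called are read against those shares in these fits. A fit of the 4 untreated libraries alone called 3007. More loci passed without either SYK-WT library than with all libraries, in each direction. Counts of list members in those 2 fits are therefore neither given nor read as results about a list. The shares of the fits without a SYK-KO library hold both directions, split near evenly. A count in 1 direction in these fits thus stands beside a smaller share. All log2 fold changes below are SYK-KO minus SYK-WT on the log2(FPKM + 1) scale, which understates the change of low loci. In bulk RNA, fewer cells that express a gene and less of its RNA per cell cannot be told apart.

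Small RNA loci and loci that merge several symbols were left out when the largest changes were picked. The largest rise was that of EIF4EBP1 (chr8:37888020-37917883, hg19), which encodes 4E-BP1, the mTORC1-regulated protein that binds eIF4E and blocks cap-dependent translation. It had 50.9 and 47.2 FPKM in SYK-KO cells, against 0.243 and 0.530 FPKM in SYK-WT cells (log2 fold change 5.18, SE 0.12, limma adjusted p = 7.4e-07). The neutrophil-attracting chemokine CXCL5 (chr4:74861359-74864446) was next, with 20.3 and 19.97 FPKM in SYK-KO cells, against 0 and 0 FPKM in SYK-WT cells. Its difference of 4.40 on the log2(FPKM + 1) scale (limma adjusted p = 5.8e-08) is not a fold, since CXCL5 is listed at 0 in both SYK-WT libraries. Both genes were near silent in one genotype and well expressed in the other. EPHX1, the microsomal epoxide hydrolase that detoxifies reactive epoxides, had 94.2 and 96.1 FPKM in SYK-KO cells, against 6.12 and 7.27 FPKM in SYK-WT cells (log2 fold change 3.65, SE 0.09, limma adjusted p = 7.4e-07). HBE1, the embryonic epsilon globin, had 36.3 and 35.8 FPKM in SYK-KO cells, against 3.42 and 2.65 FPKM in SYK-WT cells (log2 fold change 3.21, SE 0.10, limma adjusted p = 2.4e-06). FKBP10, a prolyl isomerase of the endoplasmic reticulum that helps fold collagen, had 36.1 and 36.3 FPKM in SYK-KO cells, against 3.21 and 4.21 FPKM in SYK-WT cells (log2 fold change 2.99, SE 0.10, limma adjusted p = 3.1e-06). The genotypes did not overlap for any of these 3 genes. NUPR1, a small stress-induced nuclear protein, was the most abundant gene of this group after IFI27, with 421 and 402 FPKM in SYK-KO cells, against 44.1 and 71.4 FPKM in SYK-WT cells (log2 fold change 2.85, SE 0.18, limma adjusted p = 4.2e-05). IFI27, an interferon-inducible gene, had 549 and 515 FPKM in SYK-KO cells, against 92.3 and 113 FPKM in SYK-WT cells (log2 fold change 2.37, SE 0.13, limma adjusted p = 1.9e-05).

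The 15 largest rises, taken among called loci whose higher genotype averaged 5 FPKM or more, also held 8 genes with log2 fold changes between 2.45 and 2.77. They were THSD1, a membrane protein with a thrombospondin repeat (2.77), and the homeobox factors DLX5 (2.71) and MEIS3 (2.47). Others were PI3, the elastase inhibitor elafin (2.67), and PDE2A, a cGMP-stimulated phosphodiesterase (2.62). WLS, which carries WNT proteins to the cell surface (2.49), COX7A1, a cytochrome oxidase subunit best known from muscle (2.46), and P2RY2, a receptor for extracellular ATP and UTP (2.45), made up the rest. Their limma adjusted p-values ran from 7.4e-07 (PDE2A) to 5.7e-05 (P2RY2). For WLS the authors' untreated q-value was 0.15.

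With small RNA loci and merged loci left out in the same way, the largest fall was that of ALDOC (chr17:26900133-26903951, hg19). It encodes the aldolase isoform best known from brain. It had 5.41 and 4.99 FPKM in SYK-KO cells, against 84.1 and 116 FPKM in SYK-WT cells (log2 fold change -4.01, SE 0.18, limma adjusted p = 8.2e-06). FGFR3 (chr4:1795039-1810599), a receptor for fibroblast growth factors, had 6.43 and 7.29 FPKM in SYK-KO cells, against 49.1 and 68.6 FPKM in SYK-WT cells (log2 fold change -2.91, SE 0.14, limma adjusted p = 1.3e-05). MSLN (chr16:810765-818865), the surface glycoprotein mesothelin, had 0.162 and 0.123 FPKM in SYK-KO cells, against 5.68 and 7.63 FPKM in SYK-WT cells (log2 fold change -2.73, SE 0.12, limma adjusted p = 8.2e-06). SYK-WT replicate 2 was the highest of the 4 libraries for all 3 genes, and the SYK-WT replicates differed more than the SYK-KO replicates. S100A9, a calcium-binding subunit of calprotectin, had 15.2 and 12.7 FPKM in SYK-KO cells, against 140.4 and 139 FPKM in SYK-WT cells (log2 fold change -3.24, SE 0.11, limma adjusted p = 3.6e-06). KLK6, a secreted serine protease, had 49.2 and 57.6 FPKM in SYK-KO cells, against 319 and 260.5 FPKM in SYK-WT cells (log2 fold change -2.41, SE 0.12, limma adjusted p = 1.3e-05). Both stayed detectable in SYK-KO cells. IGFBP4, a binder of insulin-like growth factors, had 3.62 and 3.16 FPKM in SYK-KO cells, against 25.7 and 28.4 FPKM in SYK-WT cells (log2 fold change -2.68, SE 0.12, limma adjusted p = 8.0e-06). The 15 largest falls also held HCAR1, YPEL3, SLC1A6 and MUC5AC, which are described with the loci that were off in SYK-KO. The last 5 were the antisense RNA TMEM132D-AS1 (-2.56), the matricellular protein CCN2 (-2.33), the adaptor STAP2 (-2.27), the lipase LIPH, which makes lysophosphatidic acid (-2.20), and ADAMTSL4 (-2.12). Their limma adjusted p-values ran from 5.9e-06 (STAP2) to 0.00011 (TMEM132D-AS1). For ADAMTSL4 the authors' untreated q-value was 0.086.

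**Figure D1:**
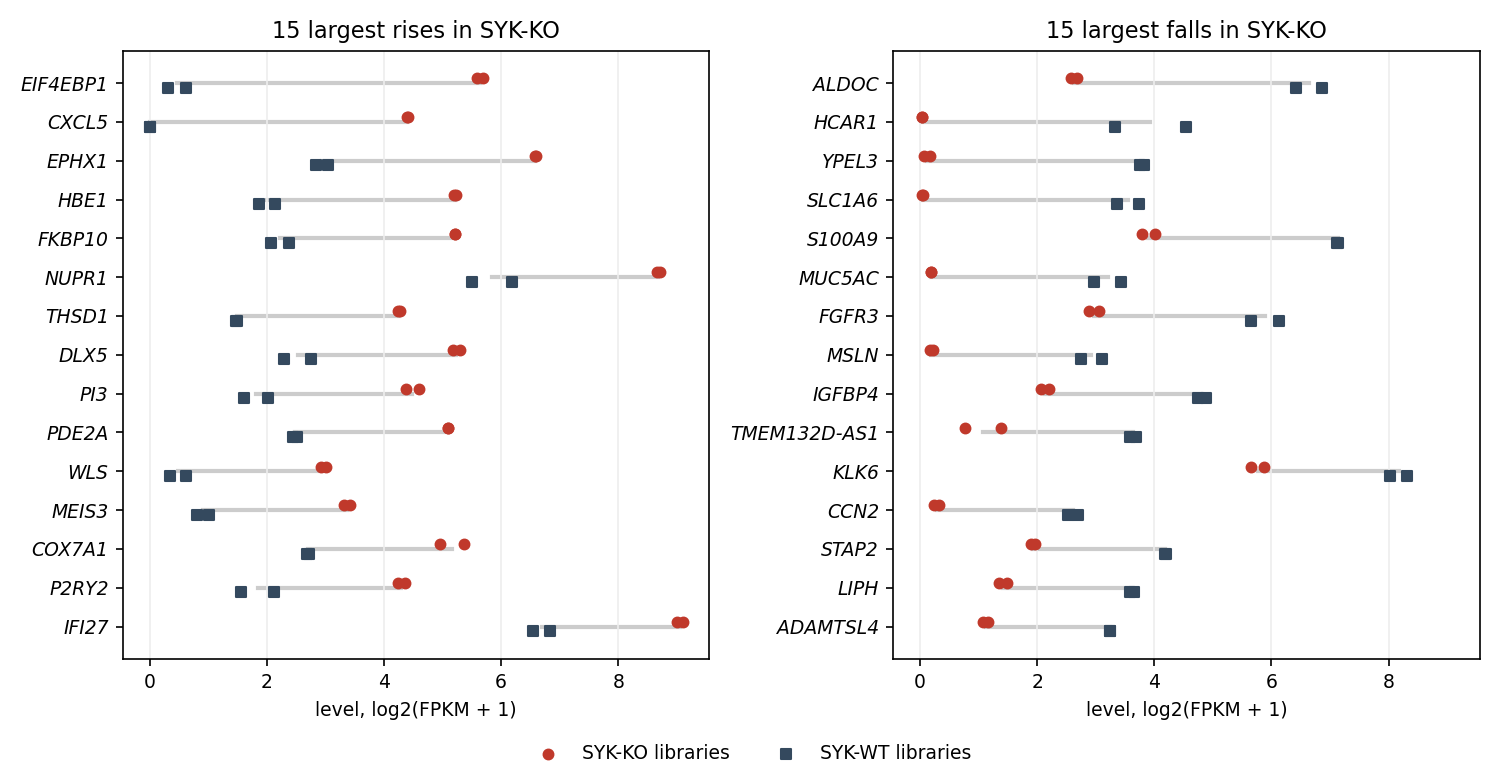
Levels of the 15 largest rises (left) and the 15 largest falls (right) on a log2(FPKM + 1) axis, with red circles for the 2 SYK-KO libraries, dark squares for the 2 SYK-WT libraries and grey bars between the group means. No gene overlaps between the genotypes, and the widest gaps are those of EIF4EBP1 among the rises (5.18) and of ALDOC among the falls (-4.01).

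Loci were called on where both libraries of a genotype had at least 2 FPKM and off where both had at most 0.2 FPKM. By this rule, which uses the untreated levels and so allows no test on them, 14 loci switched between the genotypes, 4 on in SYK-KO and 10 off in SYK-KO. A further 4 loci of small RNAs met it and were left out, since FPKM of transcripts shorter than a fragment are unstable. On in SYK-KO, besides CXCL5, were MFAP2 and SUN3 among others. MFAP2, a glycoprotein of elastic microfibrils, had 4.396 and 4.97 FPKM in SYK-KO cells, against 0 and 0 FPKM in SYK-WT cells. SUN3, a nuclear envelope protein best known from the testis, had 2.83 and 2.41 FPKM in SYK-KO cells, against 0.0575 and 0 FPKM in SYK-WT cells. Of the 4, CXCL5 alone was above 5 FPKM.

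Off in SYK-KO were 8 protein-coding and 2 noncoding loci, led by HCAR1, the lactate receptor. It had 0.0249 and 0.0244 FPKM in SYK-KO cells, against 22.3 and 9.03 FPKM in SYK-WT cells, and its 2 SYK-WT libraries differed by more than 2-fold. YPEL3, a Yippee-like protein that slows proliferation, had 0.0489 and 0.120 FPKM in SYK-KO cells, against 13.1 and 12.4 FPKM in SYK-WT cells. SLC1A6, a glutamate transporter best known from Purkinje cells, had 0.0206 and 0.0405 FPKM in SYK-KO cells, against 12.4 and 9.25 FPKM in SYK-WT cells. All 3 were clearly expressed in SYK-WT and close to 0 in SYK-KO. MUC5AC, a gel-forming mucin of stomach and airway, had 0.134 and 0.137 FPKM in SYK-KO cells, against 6.85 and 9.84 FPKM in SYK-WT cells. ALPP, placental alkaline phosphatase, had 0.137 and 0.0856 FPKM in SYK-KO cells, against 4.24 and 5.75 FPKM in SYK-WT cells. FLNC, the actin crosslinker of muscle, had 0.0238 and 0.0116 FPKM in SYK-KO cells, against 3.06 and 3.09 FPKM in SYK-WT cells. LXN, a carboxypeptidase inhibitor, had 0 and 0 FPKM in SYK-KO cells, against 2.25 and 2.42 FPKM in SYK-WT cells. The noncoding LINC01139 had 0 and 0 FPKM in SYK-KO cells, against 2.73 and 2.51 FPKM in SYK-WT cells. Both are listed at 0 in both SYK-KO libraries, so no fold is given for them, and IGFL2-AS1 and MSLN completed the list. ALPP has a near-identical neighbour gene and IGFL2-AS1 is named as antisense to another gene. How reads were shared out between such loci is not given in the sources used here.

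The EGF-treated libraries did not choose these loci. All 14 passed the test there in the same direction, where 43.6% of all loci tested passed it in either direction (21.1% higher, 22.5% lower), and in all 14 the groups did not overlap (78.9% of all loci). That test takes its spread from all 8 libraries, among them the untreated ones that chose the loci. Its outcome is therefore a description and not a separate test. The on/off thresholds themselves were met again by 6 of the 14. CXCL5 had 34.00 and 34.2 FPKM in SYK-KO EGF cells, against 0 and 0.0161 FPKM in SYK-WT EGF cells. ALPP, in contrast, had 0.0288 and 0.0511 FPKM in SYK-KO EGF cells, against 0.677 and 0.776 FPKM in SYK-WT EGF cells, so its gap was narrower with EGF. This difference between the comparisons did not pass its own test (limma adjusted p = 0.069). For 11 of the 14 loci the authors' deposited table gave an untreated q-value under 0.05, and for HCAR1 (q = 0.1), LXN (q = 0.3) and SUN3 (q = 0.48) it did not. With EGF, the authors' q-value for CXCL5 was 0.49. Just outside the thresholds lay 6 loci on the SYK-KO side, namely DOK5, CDH6, CHL1, FGB, IL32 and MMP1, whose higher SYK-WT library had between 0.233 and 0.391 FPKM. On the SYK-WT side 3 loci lay just outside, namely CCN2, MAL and STING1, whose higher SYK-KO library had between 0.211 and 0.297 FPKM. STING1, the adaptor of cytosolic DNA sensing, had 0.173 and 0.297 FPKM in SYK-KO cells, against 3.23 and 5.15 FPKM in SYK-WT cells. With a looser limit of 0.5 FPKM for off and a stricter limit of 5 FPKM for on, 6 loci switched.

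**Figure D2:**
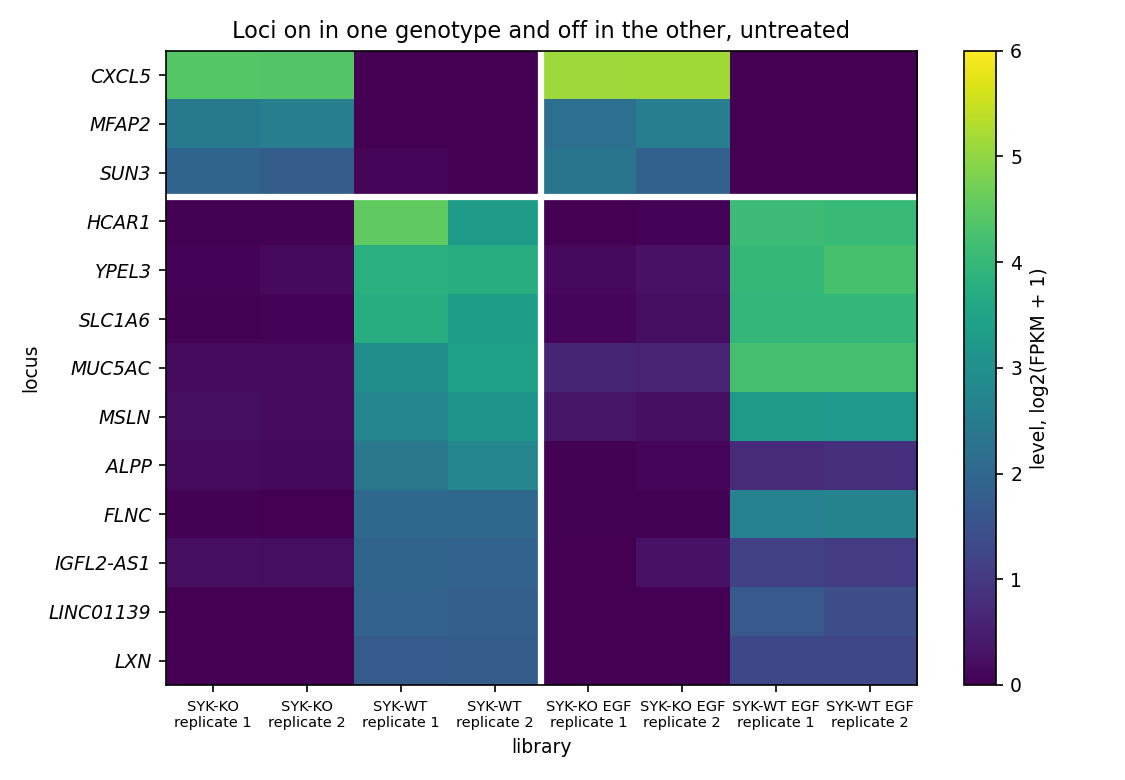
Levels on a colour scale of log2(FPKM + 1) for 3 of the 4 loci on in SYK-KO (upper block) and the 10 off in SYK-KO (lower block), with the 4 untreated libraries left of the white line and the 4 EGF-treated libraries right of it. CXCL5 reaches 34.2 FPKM in SYK-KO EGF cells and stays at 0 or 0.0161 FPKM in SYK-WT EGF cells, while ALPP is below 1 FPKM in every EGF-treated library.

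CXCL5 lies in a cluster of related chemokine genes on the long arm of chromosome 4, and its neighbours did not share its change. Its relatives CXCL1, CXCL2, CXCL3 and CXCL8 were chosen after their values had been seen. CXCL1 had 23.1 and 23.9 FPKM in SYK-KO cells, against 71.4 and 51.5 FPKM in SYK-WT cells (log2 fold change -1.33, SE 0.14, limma adjusted p = 0.00036). CXCL8, the chemokine interleukin-8, had 5.09 and 5.99 FPKM in SYK-KO cells, against 8.202 and 4.87 FPKM in SYK-WT cells (log2 fold change -0.17, limma adjusted p = 0.52). CXCL2 (0.19) and CXCL3 (0.23) did not pass the test either. CXCL5 was thus higher and CXCL1 lower in SYK-KO, within one cluster. The 250 bases before the annotated start of the CXCL5 and CXCL1 genes are shown (RefSeq, GRCh38.p14, gene strand), with the longest run of bases that both windows hold, GGGAATTTCCC, in capitals. It has the form of a kappaB site, the element that NF-kappaB factors bind:
CXCL5: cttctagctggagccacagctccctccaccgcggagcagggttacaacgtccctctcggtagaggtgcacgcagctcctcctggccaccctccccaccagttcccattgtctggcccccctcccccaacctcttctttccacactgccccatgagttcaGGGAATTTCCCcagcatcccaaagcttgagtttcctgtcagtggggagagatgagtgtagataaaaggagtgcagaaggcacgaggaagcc
CXCL1: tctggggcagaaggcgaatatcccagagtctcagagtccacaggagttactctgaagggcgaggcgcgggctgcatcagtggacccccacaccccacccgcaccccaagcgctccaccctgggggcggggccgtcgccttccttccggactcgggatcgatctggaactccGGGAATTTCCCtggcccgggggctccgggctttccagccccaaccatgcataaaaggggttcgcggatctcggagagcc
They lie at chr4:73998678-73998927 on the minus strand and chr4:73869143-73869392 on the plus strand. The windows of CXCL2 and CXCL3 hold the same run and that of CXCL8 does not. Among 9656 windows of this length before tested loci, 11 (0.114%) held it on either strand. The run was thus shared by a gene that rose, a gene that fell and genes that did not pass the test.

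Promoter windows were found for 8 of the 14 on/off loci, by symbol, and one pair of windows shows how far they differed in CG dinucleotides. Vertebrate promoters fall into those rich in CG, typical of widely expressed genes, and those poor in CG, typical of tissue-restricted genes. The window of YPEL3, off in SYK-KO, and that of MFAP2, on in SYK-KO, are given with every CG in capitals:
YPEL3: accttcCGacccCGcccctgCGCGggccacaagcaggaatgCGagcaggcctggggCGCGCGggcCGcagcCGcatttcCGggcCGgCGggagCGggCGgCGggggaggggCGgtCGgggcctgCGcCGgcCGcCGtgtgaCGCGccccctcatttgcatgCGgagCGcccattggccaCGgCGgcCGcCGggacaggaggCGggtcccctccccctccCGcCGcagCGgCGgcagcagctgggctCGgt
MFAP2: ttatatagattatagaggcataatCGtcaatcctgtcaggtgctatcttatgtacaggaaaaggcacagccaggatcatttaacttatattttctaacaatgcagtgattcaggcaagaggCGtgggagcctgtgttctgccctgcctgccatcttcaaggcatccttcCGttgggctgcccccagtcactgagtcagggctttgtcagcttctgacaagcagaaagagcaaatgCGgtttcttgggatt
They lie at chr16:30096214-30096463 and chr1:16981584-16981833, both on the minus strand (RefSeq, GRCh38.p14, gene strand). YPEL3 holds 36 CG and MFAP2 holds 4, where tested loci had a median of 21 with a middle range of 14 to 28. FLNC (38) was also above that range and SLC1A6 (16) was inside it. CXCL5 (6), SUN3 (4), ALPP (5) and LXN (7) were below it. Loci that switched thus had promoters of both kinds, and methylation was not measured here.

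A different kind of change was shared by neighbours on a chromosome. For 9440 tested loci with a mean of at least 3 FPKM over the untreated libraries, the median log2 fold change of the 10 nearest such loci on each side was taken, leaving out the locus itself. A run was called where 10 or more consecutive loci had a neighbour median at least 0.3 from the centre of all loci. There were 22 runs, 15 higher and 7 lower in SYK-KO, and they held 617 loci (6.54%). Of the loci in runs, 67.3% passed the test, against 40.0% outside, and 401 of the 415 calls in runs went the way of the run. The rule that drew the runs used these values, so nothing is read from that. The EGF-treated libraries did not choose them, and all 22 runs had a median of the same sign there, with 67.3% of run loci also in runs drawn from the EGF-treated libraries.

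On chromosome 4, 2 runs covered the distal long arm (chr4:129190392-152025804 and chr4:152591809-190884359, hg19). Their median log2 fold changes were 0.35 over 27 loci and 0.42 over 56 loci. NDUFC1, a subunit of respiratory complex I in the first of them, had 63.2 and 55.8 FPKM in SYK-KO cells, against 30.9 and 27.3 FPKM in SYK-WT cells (log2 fold change 1.01, SE 0.09, limma adjusted p = 0.00016). MSMO1, a methylsterol oxidase of cholesterol synthesis in the second, had 390.4 and 369.8 FPKM in SYK-KO cells, against 243 and 225 FPKM in SYK-WT cells (log2 fold change 0.70, SE 0.08, limma adjusted p = 0.00065). Shifts of this size, with nearly all neighbours in 1 direction (96.3% and 91.1% of loci positive), are smaller than those of the loci that switched. On chromosome 11, 3 runs held 44, 65 and 30 loci between 72003470 and 134246218, with medians of 0.40, 0.34 and 0.36. UCP2, a mitochondrial uncoupling protein, had 105 and 103 FPKM in SYK-KO cells, against 38.5 and 54.3 FPKM in SYK-WT cells (log2 fold change 1.17, SE 0.13, limma adjusted p = 0.00056). RPS25, a ribosomal protein, had 2518 and 2377 FPKM in SYK-KO cells, against 1687 and 1598 FPKM in SYK-WT cells (log2 fold change 0.57, SE 0.07, limma adjusted p = 0.00073).

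Chromosome 19 held runs of both directions. Loci rose together in 3 runs of 54, 36 and 16 loci, with medians of 0.40, 0.46 and 0.30, and fell together in 3 runs of 11, 26 and 14 loci further along the long arm, with medians of -0.40, -0.36 and -0.34. TBCB, a tubulin-folding cofactor in a rising run, had 456 and 429.7 FPKM in SYK-KO cells, against 252 and 275 FPKM in SYK-WT cells (log2 fold change 0.75, SE 0.07, limma adjusted p = 0.00019). RPL13A, a ribosomal protein in a falling run, had 6576 and 6590 FPKM in SYK-KO cells, against 9534 and 10389 FPKM in SYK-WT cells (log2 fold change -0.60, SE 0.07, limma adjusted p = 0.00073). On the X chromosome, 291 loci had a median log2 fold change of 0.30, and 57.4% were called higher and 4.47% lower, against medians between -0.14 and 0.19 on the autosomes. MSN, the membrane-actin linker moesin, had 175 and 179 FPKM in SYK-KO cells, against 101 and 105 FPKM in SYK-WT cells (log2 fold change 0.77, SE 0.07, limma adjusted p = 0.00016). The 6 X runs had medians from 0.11 to 0.43, and the lowest of them had 4 of 10 loci called higher.

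Chromosome 1 held 1 rising run of 12 loci, from RCOR3 to NSL1, with a median of 0.69, and 3 falling runs of 24, 14 and 23 loci with medians of -0.32, -0.60 and -0.50. NEK2, a centrosomal mitotic kinase in the rising run, had 23.8 and 23.6 FPKM in SYK-KO cells, against 11.95 and 14.3 FPKM in SYK-WT cells (log2 fold change 0.81, SE 0.10, limma adjusted p = 0.00072). TOMM20, a receptor of mitochondrial protein import in a falling run, had 49.7 and 51.9 FPKM in SYK-KO cells, against 94.8 and 86.6 FPKM in SYK-WT cells (log2 fold change -0.82, SE 0.08, limma adjusted p = 0.00027). The rising run and the last 2 falling runs lie on the long arm, with opposite shifts within a few megabases. The remaining falling run, of 23 loci with a median of -0.31, lay near the end of the long arm of chromosome 8.

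**Figure D3:**
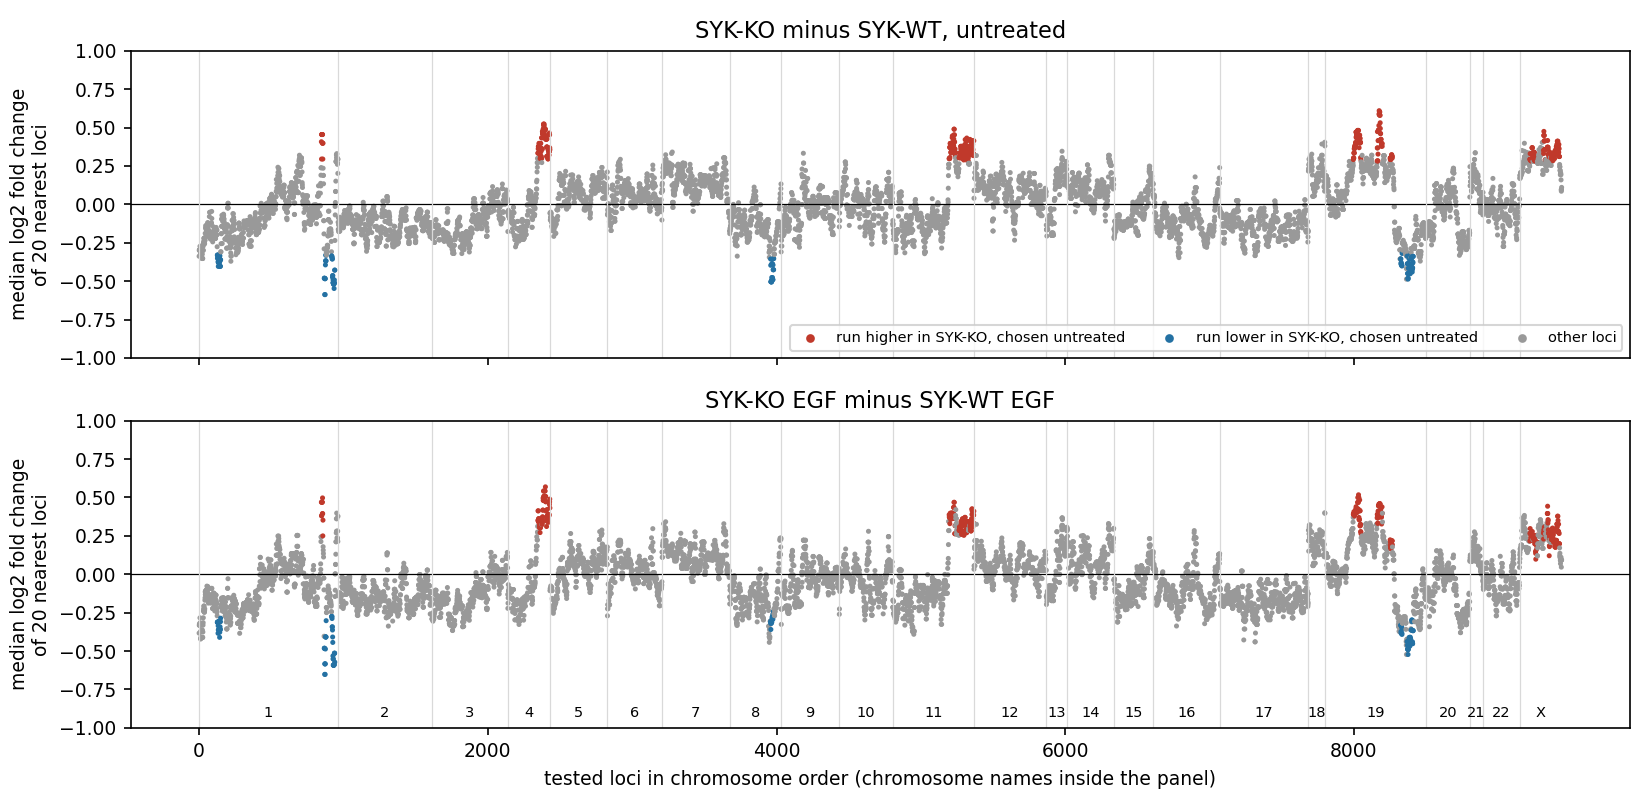
Median log2 fold change of the 20 nearest loci for each of 9440 loci in chromosome order, for SYK-KO minus SYK-WT untreated (upper panel) and SYK-KO EGF minus SYK-WT EGF (lower panel). Loci of the 22 untreated runs are red (higher in SYK-KO) or blue (lower in SYK-KO) in both panels, and the 2 profiles have a Pearson r of 0.935 across overlapping windows.

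Large changes were set beside the runs, which hold 6.54% of the loci measured. Of 269 called loci past 1 on the log2 scale that entered the neighbour measure, 34 (12.6%) lay in a run of their own direction, against 10.0% of the 3675 smaller calls. After the neighbour median was taken off, 241 loci still stood at 1 or more. None of the 14 on/off loci lay in a run, and their neighbour medians ran from -0.38 to 0.32. EIF4EBP1 had a neighbour median of -0.16, CXCL5 of -0.19, ALDOC of -0.29, FGFR3 of -0.09 and MSLN of -0.15. SLC1A6 fell by 3.51 on the log2 scale beside neighbours with a median of 0.32. Among the 30 largest changes, PDE2A, P2RY2 and COX7A1 lay in rising runs. A set of 20 directly neighbouring pairs of loci had both members past 1 in the same direction, 16 pairs higher and 4 lower. Those named here were chosen after their values were seen, and included the homeobox pair DLX5 and DLX6, the antiproteases PI3 and SLPI, the interleukin-1 receptors IL1R1 and IL1R2, the metallothioneins MT2A, MT1F and MT1X, and, among the lower pairs, C3 and TNFSF9. HBE1 and its olfactory receptor neighbour OR51B5 were another pair, at 3.21 and 1.99. The count of runs depends on its settings. It was 35 with 5 neighbours on each side and 13 with 20, 51 at a neighbour median of 0.2 and 1 at 0.5, and 21 to 27 when 1 untreated library was left out.

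By function, interferon-stimulated genes had the highest share that rose among lists with at least 10 tested members. Of 28 tested, 19 rose and 2 fell, with a median log2 fold change of 0.53, beside 20.3% higher, 20.2% lower and a median of -0.01 over all loci tested. These values over all loci apply to every list below, and a split near them is not read as a trait of the list. OAS2, which makes the 2-5A activator of RNase L, had 9.72 and 10.3 FPKM in SYK-KO cells, against 1.77 and 1.47 FPKM in SYK-WT cells (log2 fold change 2.07, SE 0.08, limma adjusted p = 5.9e-06). IFITM1, which blocks entry of viruses, had 65.99 and 66.2 FPKM in SYK-KO cells, against 24.9 and 20.7 FPKM in SYK-WT cells (log2 fold change 1.503, SE 0.11, limma adjusted p = 7.8e-05). IFI35 had 27.7 and 28.9 FPKM in SYK-KO cells, against 16.95 and 14.9 FPKM in SYK-WT cells (log2 fold change 0.79, SE 0.07, limma adjusted p = 0.00023). The list did not move as one. IRF7 and STAT2, transcription factors of the type I interferon response, fell (-0.78, limma adjusted p = 0.0045, and -0.49, limma adjusted p = 0.0014), and IRF1 (-0.05) did not pass the test. These 3 regulators, and in the lists that follow any member named as not passing the test, were chosen after their values were seen. The list's median ran from 0.46 to 0.64 as each untreated library in turn was left out.

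Genes of antigen presentation by MHC class I gave 7 that rose and 2 that fell of 11, with a median of 0.35. HLA-B had 10.7 and 9.33 FPKM in SYK-KO cells, against 5.84 and 5.94 FPKM in SYK-WT cells (log2 fold change 0.67, SE 0.10, limma adjusted p = 0.0016), and HLA-C (0.38) and the tapasin relative TAPBPL (1.02) also rose. B2M, the invariant light chain, did not pass the test (0.03). The HLA genes stand on several haplotype sequences of hg19 that share reads, and the locus with the highest level is given, so their levels are uncertain. Of 3 tested HLA-C loci, 1 passed. The falls did not all hold as each untreated library in turn was left out, while the list's median ran from 0.29 to 0.37.

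Targets of ATF4, the transcription factor of the amino acid and endoplasmic reticulum stress response, gave 15 that rose and 4 that fell of 29, with a median of 0.29. NUPR1 led them. PCK2, the mitochondrial enzyme that makes phosphoenolpyruvate, had 43.7 and 40.8 FPKM in SYK-KO cells, against 15.8 and 16.2 FPKM in SYK-WT cells (log2 fold change 1.35, SE 0.08, limma adjusted p = 3.8e-05). SLC7A11, the cystine importer, had 3.61 and 3.65 FPKM in SYK-KO cells, against 1.42 and 1.08 FPKM in SYK-WT cells (log2 fold change 1.05, SE 0.09, limma adjusted p = 0.00019). The lipoprotein receptor VLDLR fell, with 33.7 and 35.3 FPKM in SYK-KO cells, against 66.1 and 60.1 FPKM in SYK-WT cells (log2 fold change -0.85, SE 0.07, limma adjusted p = 0.00013). Of 15 cytosolic aminoacyl-tRNA synthetases, which load amino acids onto tRNA, 7 rose and 1 fell, with a median of 0.23. WARS1 (0.79) and AARS1 (0.65) had the largest rises of them. Of 20 chaperones and stress sensors of the endoplasmic reticulum, 6 rose and none fell, with a median of 0.16. DNAJB9, an HSP70 cochaperone, had 14.5 and 14.6 FPKM in SYK-KO cells, against 8.98 and 7.27 FPKM in SYK-WT cells (log2 fold change 0.77, SE 0.11, limma adjusted p = 0.0013). Fewer synthetases rose without SYK-KO replicate 1, and fewer ATF4 targets fell without either SYK-KO library. As each untreated library in turn was left out, medians ran from 0.25 to 0.33 for ATF4 targets. Those of the synthetases ran from 0.13 to 0.37 and those of the chaperones from 0.10 to 0.19.

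Enzymes of drug and aldehyde metabolism gave 11 that rose and 2 that fell of 21, with a median of 0.41. EPHX1 led them. ALDH1A2, which makes retinoic acid from retinal, had 16.9 and 17.9 FPKM in SYK-KO cells, against 3.37 and 2.86 FPKM in SYK-WT cells (log2 fold change 2.16, SE 0.08, limma adjusted p = 4.7e-06). ALDH4A1, the mitochondrial enzyme of proline breakdown, had 10.97 and 10.99 FPKM in SYK-KO cells, against 3.68 and 4.78 FPKM in SYK-WT cells (log2 fold change 1.20, SE 0.13, limma adjusted p = 0.00042). CYP1A1, a monooxygenase induced through the aryl hydrocarbon receptor, had 5.09 and 4.81 FPKM in SYK-KO cells, against 1.39 and 1.53 FPKM in SYK-WT cells (log2 fold change 1.27, SE 0.11, limma adjusted p = 0.00016). The rises thus came from several enzyme families. Targets of NRF2, the regulator of the antioxidant response, went both ways, with 3 that rose and 5 that fell of 21. These shares, 14.3% and 23.8%, stand beside 20.3% and 20.2% of all loci tested. HMOX1, heme oxygenase 1, had 44.2 and 41.4 FPKM in SYK-KO cells, against 14.3 and 16.2 FPKM in SYK-WT cells (log2 fold change 1.43, SE 0.09, limma adjusted p = 4.2e-05). FTL, the ferritin light chain, had 508 and 479.9 FPKM in SYK-KO cells, against 1533 and 1722 FPKM in SYK-WT cells (log2 fold change -1.72, SE 0.08, limma adjusted p = 8.7e-06). As each untreated library in turn was left out, the median of the NRF2 targets ran from -0.13 to -0.06. That of the drug and aldehyde enzymes ran from 0.32 to 0.42.

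**Figure D4:**
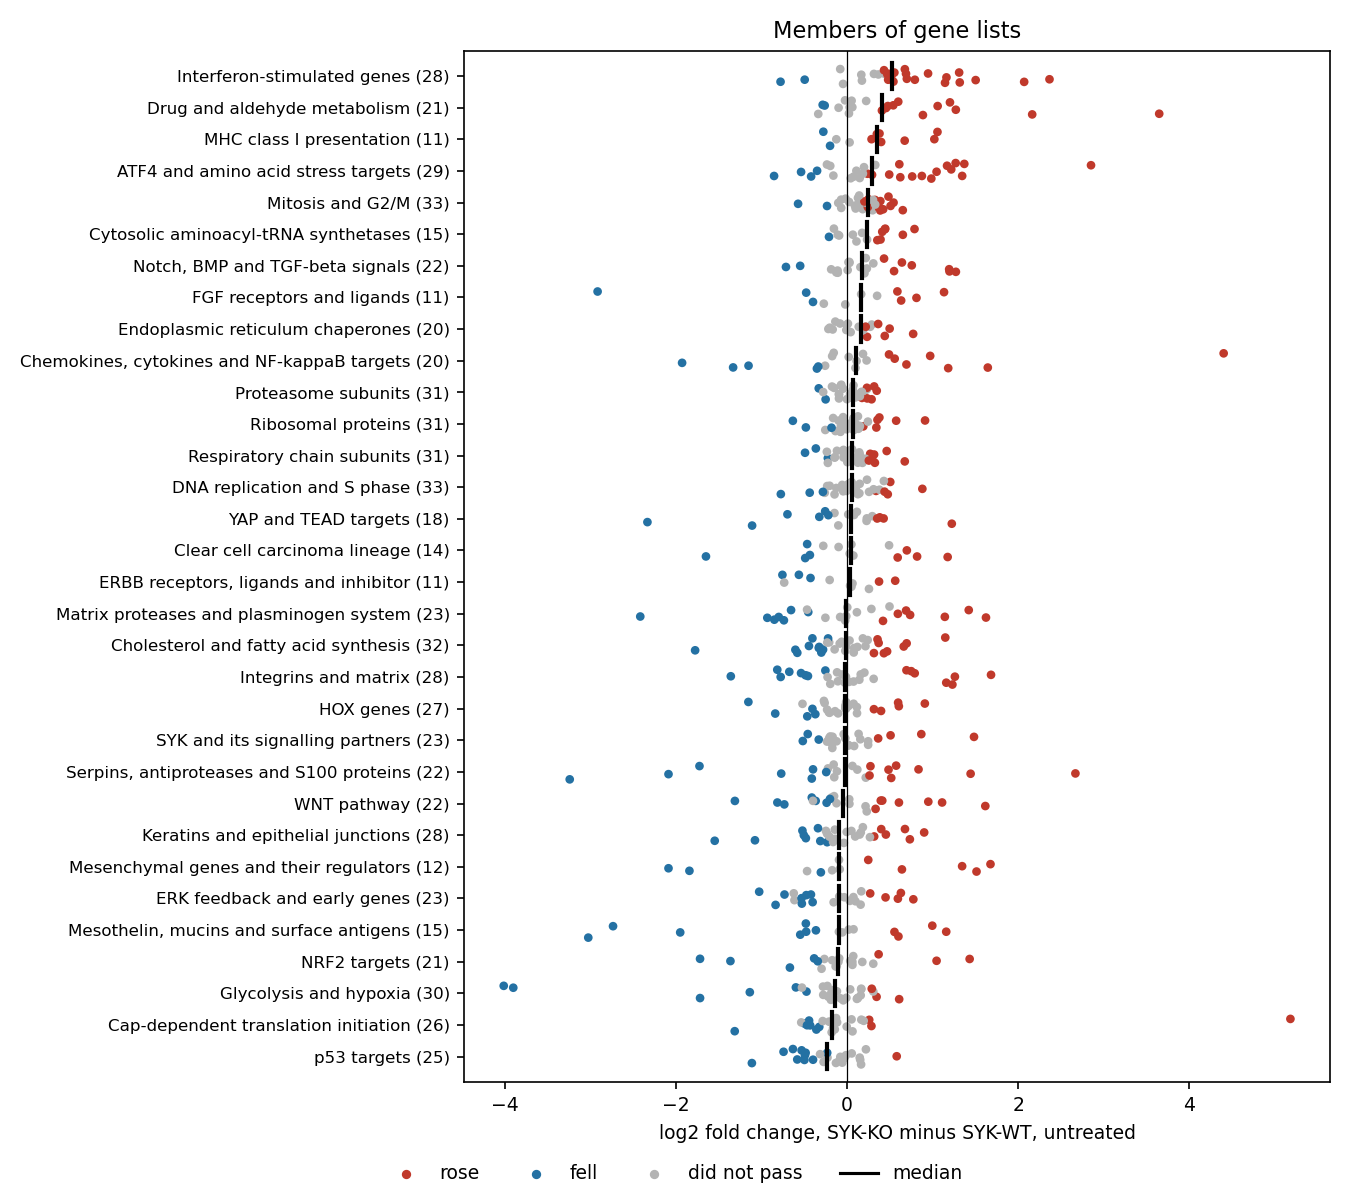
Log2 fold change (SYK-KO minus SYK-WT, untreated) of each tested member of the 32 gene lists with at least 10 tested members, ordered by the list's median (black bar), with the number tested in brackets. Red members rose, blue members fell and grey members did not pass; interferon-stimulated genes have the highest median (0.53) and p53 targets the lowest (-0.23).

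Genes of mitosis and the G2/M phase gave 14 that rose and 2 that fell of 33, with a median of 0.24. PTTG1, securin, had 84.5 and 76.8 FPKM in SYK-KO cells, against 46.7 and 55.4 FPKM in SYK-WT cells (log2 fold change 0.65, SE 0.10, limma adjusted p = 0.0025). FOXM1, a transcription factor of this phase, had 15.97 and 15.4 FPKM in SYK-KO cells, against 9.68 and 11.2 FPKM in SYK-WT cells (log2 fold change 0.54, SE 0.08, limma adjusted p = 0.002). CENPF, a kinetochore protein, fell (log2 fold change -0.57, SE 0.07, limma adjusted p = 0.00095). Of 33 genes of DNA replication, 5 rose and 3 fell, with a median of 0.06. CDT1, which licenses origins, rose (log2 fold change 0.88, SE 0.13, limma adjusted p = 0.0019) and MCM2, a subunit of the replicative helicase, fell (log2 fold change -0.77, SE 0.11, limma adjusted p = 0.0012). The mitotic rises were small, and fewer mitotic genes rose without either SYK-KO library. The median of the mitotic genes ran from 0.14 to 0.32 as each untreated library in turn was left out. The median of the replication genes ran from -0.02 to 0.14 as each untreated library in turn was left out.

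Targets of p53 had the lowest median of the lists with at least 10 tested members, -0.23, with 1 that rose and 10 that fell of 25. PLK3, a stress-responsive polo-like kinase, had 2.92 and 2.97 FPKM in SYK-KO cells, against 7.23 and 7.82 FPKM in SYK-WT cells (log2 fold change -1.11, SE 0.08, limma adjusted p = 6.0e-05). BTG2, an antiproliferative factor, had 28.6 and 28.8 FPKM in SYK-KO cells, against 49.2 and 48.05 FPKM in SYK-WT cells (log2 fold change -0.74, SE 0.06, limma adjusted p = 0.0001). SESN1, a sestrin that restrains mTORC1, had 7.99 and 8.097 FPKM in SYK-KO cells, against 13.5 and 12.6 FPKM in SYK-WT cells (log2 fold change -0.63, SE 0.07, limma adjusted p = 0.00049). BAX, an activator of mitochondrial cell death, fell as well (log2 fold change -0.49, SE 0.07, limma adjusted p = 0.0012). CDKN1A, the cell cycle inhibitor p21 (0.17), and MDM2, the p53 ligase (-0.27), did not pass the test. The median of the p53 targets ran from -0.30 to -0.14 as each untreated library in turn was left out.

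EIF4EBP1 rose within a pathway most of whose genes did not pass the test. Of 26 genes of cap-dependent translation initiation and its mTORC1 control, 3 rose (11.5%) and 7 fell (26.9%), with a median of -0.17. Over all loci tested, 20.3% were higher and 20.2% lower, so this split is not read as a trait of the pathway. DEPTOR, an inhibitor bound to mTOR, had 13.8 and 14.2 FPKM in SYK-KO cells, against 38.4 and 34.2 FPKM in SYK-WT cells (log2 fold change -1.31, SE 0.08, limma adjusted p = 4.2e-05). MTOR itself had 5.09 and 5.18 FPKM in SYK-KO cells, against 7.37 and 7.94 FPKM in SYK-WT cells (log2 fold change -0.50, SE 0.07, limma adjusted p = 0.0018), and EIF4G3, an initiation scaffold, also fell (log2 fold change -0.43, SE 0.08, limma adjusted p = 0.0039). EIF4EBP2, the closest relative of EIF4EBP1, did not pass the test (-0.18, limma adjusted p = 0.19), nor did its binding partner EIF4E (-0.19, limma adjusted p = 0.14). Without either SYK-KO library, 1 gene of the list rose. Protein levels and phosphorylation were not measured here.

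ALDOC fell within a pathway most of whose genes did not pass the test. Of 30 genes of glycolysis and the hypoxia response, 3 rose (10%) and 6 fell (20%), with a median of -0.14. These shares stand beside 20.3% higher and 20.2% lower over all loci tested, so the falls are not read as a trait of the pathway. ADM, the hypoxia-induced vasodilator adrenomedullin, had 11.2 and 11.2 FPKM in SYK-KO cells, against 30.7 and 49.7 FPKM in SYK-WT cells (log2 fold change -1.72, SE 0.20, limma adjusted p = 0.00063). ENO2, the neuronal enolase, had 12.9 and 13.5 FPKM in SYK-KO cells, against 28.5 and 31.8 FPKM in SYK-WT cells (log2 fold change -1.13, SE 0.11, limma adjusted p = 0.00033). The ubiquitous relatives ALDOA (-0.12) and ENO1 (0.12) did not pass the test. The median of the glycolysis and hypoxia list ran from -0.15 to -0.01 as each untreated library in turn was left out.

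Among 15 mucins and surface antigens of ovarian carcinoma, 4 rose and 7 fell, with a median of -0.09. MUC20, a membrane mucin, had 4.19 and 4.58 FPKM in SYK-KO cells, against 20.1 and 19.5 FPKM in SYK-WT cells (log2 fold change -1.95, SE 0.08, limma adjusted p = 7.5e-06). CEACAM1, a cell adhesion molecule, had 5.84 and 5.39 FPKM in SYK-KO cells, against 1.98 and 1.94 FPKM in SYK-WT cells (log2 fold change 1.16, SE 0.08, limma adjusted p = 5.0e-05). MUC5AC, MSLN and MUC20 thus fell while CEACAM1 rose. Genes of clear cell lineage were split, with 4 that rose and 4 that fell of 14. NAPSA, the aspartic protease napsin A, had 1.23 and 0.787 FPKM in SYK-KO cells, against 5.12 and 5.37 FPKM in SYK-WT cells (log2 fold change -1.65, SE 0.12, limma adjusted p = 8.4e-05), in a falling run on chromosome 19. GPX3, a secreted glutathione peroxidase, had 92.1 and 104 FPKM in SYK-KO cells, against 41.6 and 43.7 FPKM in SYK-WT cells (log2 fold change 1.18, SE 0.10, limma adjusted p = 0.00015). Without SYK-KO replicate 1, 4 of the surface antigens and 2 of the lineage genes fell, and without SYK-KO replicate 2, 3 of the surface antigens fell.

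Epithelial and mesenchymal genes went both ways, as did all loci tested (20.3% higher, 20.2% lower). Of 28 keratins and junction genes, 6 rose and 8 fell, and of 12 mesenchymal genes, 5 rose and 3 fell. CDH1, E-cadherin, had 38.04 and 44.5 FPKM in SYK-KO cells, against 84.7 and 90.8 FPKM in SYK-WT cells (log2 fold change -1.07, SE 0.10, limma adjusted p = 0.00019). KRT81, a hair keratin, had 0.160 and 0.137 FPKM in SYK-KO cells, against 1.96 and 2.79 FPKM in SYK-WT cells (log2 fold change -1.54, SE 0.13, limma adjusted p = 0.00014). CLDN16, a claudin of the kidney, had 121 and 129.9 FPKM in SYK-KO cells, against 74.03 and 59.8 FPKM in SYK-WT cells (log2 fold change 0.90, SE 0.10, limma adjusted p = 0.00053). Among junction genes CDH1 was thus lower and CLDN16 higher in SYK-KO. TWIST1, a transcription factor known to repress CDH1, had 7.14 and 6.37 FPKM in SYK-KO cells, against 1.94 and 2.16 FPKM in SYK-WT cells (log2 fold change 1.35, SE 0.09, limma adjusted p = 4.6e-05). TAGLN, an actin-binding protein of smooth muscle in a rising run on chromosome 11, had 5.100 and 5.14 FPKM in SYK-KO cells, against 1.33 and 0.976 FPKM in SYK-WT cells (log2 fold change 1.51, SE 0.09, limma adjusted p = 3.6e-05). FN1, fibronectin, had 1.37 and 1.48 FPKM in SYK-KO cells, against 7.01 and 8.42 FPKM in SYK-WT cells (log2 fold change -1.84, SE 0.10, limma adjusted p = 2.4e-05). S100A4, often called a fibroblast protein, had 72.5 and 77.3 FPKM in SYK-KO cells, against 285 and 361 FPKM in SYK-WT cells (log2 fold change -2.08, SE 0.11, limma adjusted p = 1.8e-05). VIM, the mesenchymal filament vimentin, also rose and is described with the other observations. The median of the mesenchymal list ran from -0.20 to 0.17 as each untreated library in turn was left out.

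Genes of the cell surface and its surroundings also went both ways, beside 20.3% higher and 20.2% lower over all loci tested. Integrins and matrix proteins gave 7 that rose and 8 that fell of 28. ITGA2, the integrin subunit of collagen receptors, had 33.4 and 36.2 FPKM in SYK-KO cells, against 12.3 and 8.36 FPKM in SYK-WT cells (log2 fold change 1.68, SE 0.15, limma adjusted p = 0.00019). ITGB8, a subunit that helps activate TGF-beta, had 18.1 and 18.8 FPKM in SYK-KO cells, against 52.5 and 45.3 FPKM in SYK-WT cells (log2 fold change -1.36, SE 0.08, limma adjusted p = 2.6e-05). Matrix proteases and their inhibitors gave 7 that rose and 7 that fell of 23. SERPINE2, an inhibitor of thrombin and plasminogen activators, had 41.1 and 39.8 FPKM in SYK-KO cells, against 15.7 and 13.3 FPKM in SYK-WT cells (log2 fold change 1.42, SE 0.09, limma adjusted p = 3.9e-05). KLK8, a kallikrein next to KLK6, had 60.9 and 61.3 FPKM in SYK-KO cells, against 114 and 121 FPKM in SYK-WT cells (log2 fold change -0.93, SE 0.07, limma adjusted p = 8.2e-05). The kallikreins named thus fell while a serpin rose. Serpins, antiproteases and S100 proteins gave 8 that rose and 7 that fell of 22. S100A14 had 0.463 and 0.568 FPKM in SYK-KO cells, against 3.95 and 4.05 FPKM in SYK-WT cells (log2 fold change -1.72, SE 0.11, limma adjusted p = 3.5e-05). Without SYK-KO replicate 1, 5 integrin and matrix genes fell and 5 of the serpins, antiproteases and S100 proteins rose.

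The genes nearest to SYK and to EGFR had medians near 0. Of 23 genes of SYK and its signalling partners, 4 rose and 3 fell, SYK itself included, with a median of -0.02. FYN, a SRC family kinase that can phosphorylate SYK docking sites, had 3.85 and 3.96 FPKM in SYK-KO cells, against 0.610 and 0.908 FPKM in SYK-WT cells (log2 fold change 1.48, SE 0.11, limma adjusted p = 7.4e-05). The adaptor SHC1 rose (0.51) and the ubiquitin ligase CBLB fell (-0.46). LYN (-0.20) and SRC (-0.04) did not pass the test. The median of SYK and its partners ran from -0.07 to 0.02 as each untreated library in turn was left out. Among 11 ERBB receptors and ligands, 2 rose and 3 fell, with a median of 0.04. EGFR had 41.8 and 47.6 FPKM in SYK-KO cells, against 36.4 and 50.7 FPKM in SYK-WT cells, which did not pass the test (log2 fold change 0.05, SE 0.15, limma adjusted p = 0.81). ERBB3, the receptor of neuregulin, had 20.2 and 19.5 FPKM in SYK-KO cells, against 26.2 and 27.9 FPKM in SYK-WT cells (log2 fold change -0.43, SE 0.07, limma adjusted p = 0.0029). ERBB2, the co-receptor of the family, had 38.98 and 43.8 FPKM in SYK-KO cells, against 54.9 and 68.9 FPKM in SYK-WT cells (log2 fold change -0.56, SE 0.12, limma adjusted p = 0.0079), which did not pass without SYK-KO replicate 1 (limma adjusted p = 0.063). TGFA, a ligand of EGFR, fell (log2 fold change -0.75, SE 0.07, limma adjusted p = 0.00021). The ligands HBEGF (log2 fold change 0.56, SE 0.12, limma adjusted p = 0.007) and NRG1 (log2 fold change 0.37, SE 0.07, limma adjusted p = 0.0052) rose. EGFR thus overlapped between the genotypes, while ERBB2, ERBB3 and TGFA were lower and HBEGF and NRG1 higher in SYK-KO.

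Feedback inhibitors and early genes of ERK signalling gave 5 that rose (21.7%) and 8 that fell (34.8%) of 23. Over all loci tested, 20.3% were higher and 20.2% lower. JUN had 14.5 and 13.2 FPKM in SYK-KO cells, against 26.3 and 32.4 FPKM in SYK-WT cells (log2 fold change -1.03, SE 0.10, limma adjusted p = 0.00025). DUSP6, an ERK phosphatase, had 12.7 and 11.5 FPKM in SYK-KO cells, against 20.7 and 20.6 FPKM in SYK-WT cells (log2 fold change -0.73, SE 0.07, limma adjusted p = 0.00023). MYC fell (log2 fold change -0.53, SE 0.06, limma adjusted p = 0.00053), and SPRY1, a sprouty inhibitor, rose (log2 fold change 0.78, SE 0.09, limma adjusted p = 0.00053). Of 11 fibroblast growth factor genes, 4 rose and 3 fell. FGFR1 had 34.3 and 36.2 FPKM in SYK-KO cells, against 23.3 and 16.6 FPKM in SYK-WT cells (log2 fold change 0.81, SE 0.14, limma adjusted p = 0.0033), so that FGFR3 was lower and FGFR1 higher in SYK-KO. The ligand FGF2 also rose (log2 fold change 1.13, SE 0.13, limma adjusted p = 0.00048). Without SYK-KO replicate 2, 2 genes of this family rose, and without SYK-KO replicate 1, 3 of the ERK genes rose.

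Chemokines, cytokines and NF-kappaB targets gave 7 that rose and 5 that fell of 20. IL6, interleukin-6, had 161 and 147 FPKM in SYK-KO cells, against 73.6 and 61.1 FPKM in SYK-WT cells (log2 fold change 1.18, SE 0.09, limma adjusted p = 0.00011). TNFAIP2, an NF-kappaB target, had 102 and 112 FPKM in SYK-KO cells, against 33.7 and 33.5 FPKM in SYK-WT cells (log2 fold change 1.65, SE 0.07, limma adjusted p = 7.2e-06). CX3CL1, the membrane-bound chemokine fractalkine, had 0.0115 and 0 FPKM in SYK-KO cells, against 1.22 and 1.24 FPKM in SYK-WT cells (log2 fold change -1.15, SE 0.08, limma adjusted p = 6.9e-05). CX3CL1 was thus close to 0 in both SYK-KO libraries, and the authors' untreated q-value for it was 0.48. Without SYK-KO replicate 2, 3 members fell.

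Developmental pathways gave 7 that rose and 7 that fell of 22 for WNT, and 7 and 2 of 22 for Notch, BMP and TGF-beta. They gave 4 and 6 of 18 for YAP and TEAD, and 5 and 5 of 27 for HOX genes. The HOX shares (18.5% each) were near those of all loci tested (20.3% higher, 20.2% lower). WNT5B, a ligand, had 7.88 and 6.803 FPKM in SYK-KO cells, against 1.41 and 2.06 FPKM in SYK-WT cells (log2 fold change 1.62, SE 0.13, limma adjusted p = 0.00014). FZD7, a WNT receptor, had 22.5 and 20.2 FPKM in SYK-KO cells, against 58.1 and 50.6 FPKM in SYK-WT cells (log2 fold change -1.31, SE 0.08, limma adjusted p = 4.4e-05). ID1 and ID3, BMP-induced inhibitors of helix-loop-helix factors, rose by 1.19 (SE 0.15, limma adjusted p = 0.00075) and 1.27 (SE 0.14, limma adjusted p = 0.00041). CCN2, a target of YAP, fell (log2 fold change -2.33, SE 0.11, limma adjusted p = 8.7e-06) while ANKRD1, another such target, rose (log2 fold change 1.22, SE 0.13, limma adjusted p = 0.0004). HOXB5 fell (log2 fold change -1.15, SE 0.11, limma adjusted p = 0.00025) and HOXD1 rose (log2 fold change 0.91, SE 0.08, limma adjusted p = 0.00022). For HOXB5 the authors' untreated q-value was 0.42. Without SYK-KO replicate 1, 4 WNT and 3 HOX genes rose, and 3 WNT and 3 YAP and TEAD genes fell. Without SYK-KO replicate 2, 4 genes of the Notch, BMP and TGF-beta list and 2 of the YAP and TEAD list rose, and 2 WNT, 3 YAP and TEAD and 3 HOX genes fell. The median of the HOX list ran from -0.06 to -0.02 as each untreated library in turn was left out.

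The large housekeeping complexes had medians near 0. Ribosomal proteins gave 6 that rose and 3 that fell of 31 with a median of 0.07, proteasome subunits 6 and 2 of 31 with 0.08, and respiratory chain subunits 8 and 3 of 31 with 0.06. Some of their changes lay in runs, such as those of NDUFA1 on the X chromosome (log2 fold change 0.68, SE 0.09, limma adjusted p = 0.0014) and RPS25 on chromosome 11 (log2 fold change 0.57, SE 0.07, limma adjusted p = 0.00073). Cholesterol and fatty acid synthesis gave 8 that rose and 10 that fell of 32. FDPS, farnesyl diphosphate synthase, had 2430 and 2218 FPKM in SYK-KO cells, against 1148 and 954 FPKM in SYK-WT cells (log2 fold change 1.15, SE 0.10, limma adjusted p = 0.00015). Without SYK-KO replicate 1, 2 ribosomal, 1 proteasome, 2 respiratory and 3 lipid synthesis genes rose, and 1 proteasome, 1 respiratory and 4 lipid synthesis genes fell. Without SYK-KO replicate 2, 2 proteasome and 5 respiratory genes rose, and 1 respiratory gene, 5 lipid synthesis genes and no proteasome gene fell. As each untreated library in turn was left out, medians ran from 0.001 to 0.089 for ribosomal genes and from 0.04 to 0.12 for proteasome genes. Those of respiratory genes ran from 0.02 to 0.12.

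The EGF-treated libraries, which share no library with the untreated comparison, showed most of the same differences. Fitted separately, the untreated libraries gave 3007 calls and the EGF-treated libraries 6454 (53.3%). Called in the same direction in both were 2718 loci, which is 90.4% of the untreated and 42.1% of the EGF-treated calls, and 5 loci were called in opposite directions. Of the 363 loci called past 1 untreated, 361 had the same sign with EGF and 356 passed the separate EGF fit in the same direction. EIF4EBP1 had 65.5 and 57.1 FPKM in SYK-KO EGF cells, against 0.734 and 0.957 FPKM in SYK-WT EGF cells (log2 fold change 5.08). ALDOC had 3.58 and 5.27 FPKM in SYK-KO EGF cells, against 100.4 and 111 FPKM in SYK-WT EGF cells (log2 fold change -4.31). FGFR3 had 5.32 and 5.86 FPKM in SYK-KO EGF cells, against 25.5 and 26.7 FPKM in SYK-WT EGF cells (log2 fold change -2.04). All 3 kept the direction that they had without EGF. Medians with EGF were 0.44 for interferon-stimulated genes (0.53 without), 0.30 for ATF4 targets (0.29), 0.25 for MHC class I (0.35) and -0.20 for p53 targets (-0.23). Other lists differed more between the comparisons, those named here among them. Mitosis had a median of 0.51 with EGF (0.24 without), DNA replication 0.33 (0.06 without) and the fibroblast growth factor genes -0.15 (0.17 without). The synthetases had a median of -0.05 with EGF (0.23 without), with 3 that rose and 3 that fell, and the drug and aldehyde enzymes had 0.17 (0.41 without). Matrix proteases had a median of -0.42 with EGF (-0.01 without), and serpins, antiproteases and S100 proteins -0.37 (-0.03 without). Differences between medians were not tested. KLK6, MMP1 and ITGA2 were singled out after their values were seen. KLK6 and MMP1 had wider gaps with EGF (-3.48 and 3.22) than without it (-2.41 and 1.62), and ITGA2 a narrower one (0.43 against 1.68), but none of these 3 differences passed the test of the difference. That test called 1 locus, PLAT, which encodes tissue plasminogen activator, with limma across all loci, and 1070 had an unadjusted p under 0.05. PLAT had 5.69 and 4.84 FPKM in SYK-KO EGF cells, against 17.6 and 17.2 FPKM in SYK-WT EGF cells, and 3.88 and 3.42 FPKM in SYK-KO cells, against 2.16 and 1.99 FPKM in SYK-WT cells. It was lower in SYK-KO with EGF and higher in SYK-KO without it (difference -2.15, limma adjusted p = 0.0026).

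**Figure D5:**
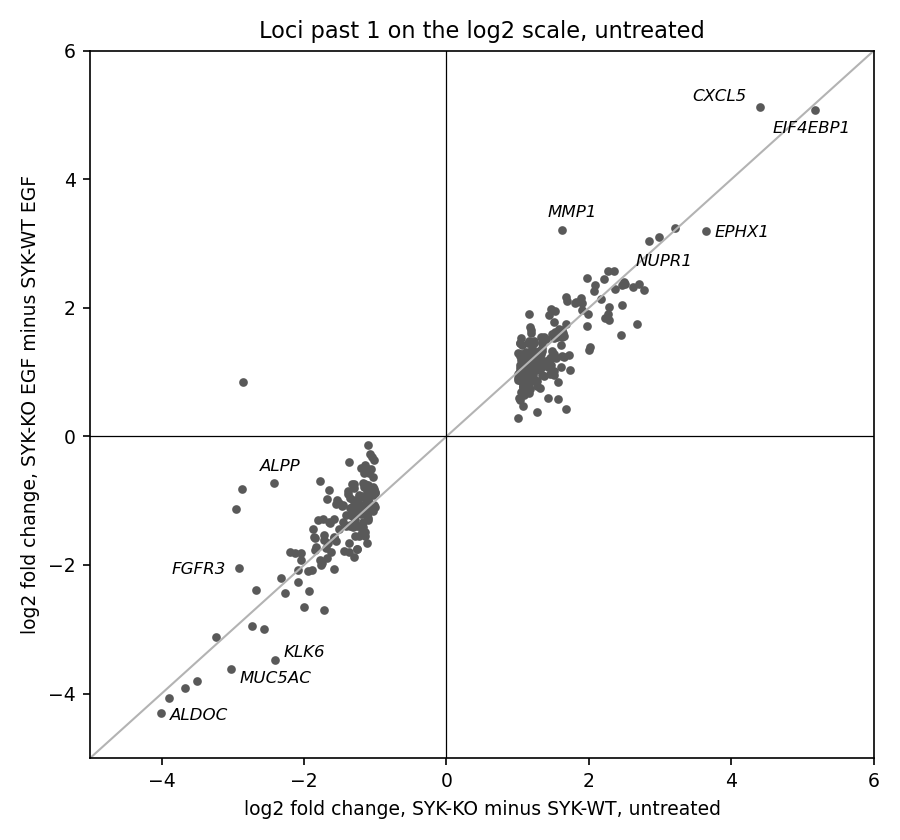
Log2 fold change of SYK-KO EGF minus SYK-WT EGF (vertical axis) against that of SYK-KO minus SYK-WT untreated (horizontal axis) for loci called past 1 untreated, with a grey line where both are equal. All but 2 of the 363 loci lie in the quadrants of equal sign, and 1 small RNA locus lies off the axes.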

How the data were processed

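RNA from 8 libraries, 2 in each of 4 groups, was sequenced with paired ends. The authors deposited one table of FPKM per locus and library, with p-values and q-values of their own comparisons, made with TopHat, Cufflinks and Cuffdiff (2.2.1.3) on hg19, per the submitters' processing notes. The table gives no counts, so no depth, interval or floor can be given, and how shared or antisense reads were assigned is not given in the sources used here. Symbols were taken from RefSeq accessions for 27222 loci and from GENCODE for 319, and 216 loci had none. Of the tested loci, 387 merge several symbols. The test used loci that reached 1 FPKM in 2 or more libraries, on log2(FPKM + 1), and was limma (3.58.1, R 4.3.3) with its trend of variance on mean level, 4 groups sharing 1 spread (4 residual degrees of freedom) and Benjamini-Hochberg adjustment over all 12112 loci at 0.05. On simulated data in which 200 of the 12112 loci were changed, 90% of loci changed by 1 and 62% of loci changed by 0.5 on the log2 scale were called. Far more loci were called in the real data, and the adjustment depends on that share, so these rates do not carry over. The 2 SYK-KO and 2 SYK-WT libraries were grouped by their labels, and replicate numbers were not taken to pair libraries. Alternatives were the pseudocount, the filter, equal medians, no trend, a fit of 2 groups, a replicate block and leaving out each library. Named genes were SYK, EGFR, ERBB2, ERBB3, the markers EIF4EBP1, CXCL5, ALDOC, FGFR3 and MSLN, the 15 largest rises and falls, up to 8 on/off loci per direction, up to 4 called members per list with the smallest adjusted p and up to 3 loci per run with the highest level. Some genes that these rules pick are not reported here. The genes, lists, rules and tests were chosen with earlier results of these data known. Sequences came from GENCODE release 29 and from RefSeq on GRCh38.p14. Reads of near-identical copies (ALPP, MUC5AC, IFITM and metallothionein genes, FTL and keratin or ribosomal pseudogenes, HLA haplotypes) can be split between loci, so those levels are uncertain.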

Additional observations from a re-analysis of the deposited data

Results flagged for a closer look

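PLAT, which encodes tissue plasminogen activator, stood apart because the difference between the genotypes itself differed with EGF. The SYK-KO minus SYK-WT log2 fold change was -1.56 with EGF and 0.59 without it, a difference of -2.15 (SE 0.13, limma adjusted p = 0.0026, n = 2 libraries per group), and SYK-KO was the lower in 2 of 2 libraries with EGF and the higher in 2 of 2 without it.

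Among named and listed genes, 3 more were looked at because both SYK-KO libraries were higher untreated and both lower with EGF, a difference that did not pass the test for any of them. CARS1, a cysteinyl-tRNA synthetase, had 39.01 and 37.8 FPKM in SYK-KO EGF cells, against 39.8 and 39.9 FPKM in SYK-WT EGF cells, and 31.7 and 31.9 FPKM in SYK-KO cells, against 25.2 and 22.2 FPKM in SYK-WT cells (difference -0.47, limma adjusted p = 0.30). CD68, a lysosomal membrane protein, had 30.99 and 31.1 FPKM in SYK-KO EGF cells, against 31.3 and 34.4 FPKM in SYK-WT EGF cells, and 16.5 and 15.4 FPKM in SYK-KO cells, against 12.3 and 12.3 FPKM in SYK-WT cells (difference -0.43, limma adjusted p = 0.31). CAPZB, an actin capping subunit, had 98.3 and 97.9 FPKM in SYK-KO EGF cells, against 101 and 102 FPKM in SYK-WT EGF cells, and 98.3 and 91.4 FPKM in SYK-KO cells, against 89.5 and 86.1 FPKM in SYK-WT cells (difference -0.16, limma adjusted p = 0.64).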

How the results depend on the processing

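Leaving out 1 library at a time gave 2460 to 5935 calls untreated (2460 without SYK-KO replicate 1, 2841 without SYK-KO replicate 2), against 4902 with all libraries. With EGF it gave 2952 to 6835, against 5277 (3078 without SYK-WT EGF replicate 1, 2952 without SYK-WT EGF replicate 2, 3164 without SYK-KO EGF replicate 1 and 3372 without SYK-KO EGF replicate 2). A group left with 1 library is assumed to vary like the others. A fit of the 4 untreated libraries alone called 3007 loci. Untreated calls were 4852 at a pseudocount of 0.1, 4835 with no filter, 4853 with library medians equalised and 4878 without a trend. On/off loci numbered 18 with limits of 0.1 and 1 FPKM, 6 with limits of 0.5 and 5 FPKM and 15 to 17 without 1 library, against 14. Runs numbered 35 with 5 neighbours on each side, 13 with 20, 51 at a neighbour median of 0.2, 1 at 0.5 and 21 to 27 without 1 library, against 22. The cause of these moves was not tested, apart from the smaller number of libraries or the changed limits that the settings themselves impose.

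Of 206 named genes that were called, 183 kept the call under every alternative run and none changed direction. The other 23 lost it under at least 1, of which 21 did so without SYK-KO replicate 1. With the replicate number as a block, 5261 loci were called untreated and 5688 with EGF, and 1 named gene lost its call. The numbers are shared in name only, since deviations of same-numbered SYK-KO and SYK-WT libraries had a correlation of 0.16 and those of SYK-KO EGF and SYK-WT EGF libraries one of -0.38.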

Other observations

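Some gene groups had too few tested members to describe as lists. Of 3 tested cancer-testis and germline genes, DPPA2, a factor of pluripotent and germline cells, rose, with 53.96 and 55.3 FPKM in SYK-KO cells, against 28.02 and 30.4 FPKM in SYK-WT cells (log2 fold change 0.88, SE 0.08, limma adjusted p = 0.00018). The locus that merges MAGEA12 with CSAG4 fell, with 0.0232 and 0 FPKM in SYK-KO cells, against 1.004 and 1.158 FPKM in SYK-WT cells. PRAME, a melanoma antigen, had 19.2 and 19.9 FPKM in SYK-KO cells, against 20.01 and 19.6 FPKM in SYK-WT cells and did not pass the test (limma adjusted p = 0.84). Of 7 tested protocadherins and neural adhesion genes, 1 rose and 4 fell. Their median ran from -0.41 to -0.31 as each untreated library in turn was left out, and fewer of them fell each time. Of 2 tested haematopoietic markers, LAPTM5 fell (-0.49) and CD68 rose (0.35), and CD68 lost its call under at least 1 alternative. None of 3 tested genes of other female-tract lineages (CDX2, CALB2, AMH) passed the test, and no endothelial or fibroblast marker reached the filter.

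Other loci outside the rule for named genes, chosen after their values were seen, were large and went the same way with EGF. VIM, the mesenchymal filament vimentin, had 295 and 298 FPKM in SYK-KO cells, against 67.3 and 126 FPKM in SYK-WT cells (log2 fold change 1.68, SE 0.23, limma adjusted p = 0.0013). IL1R2, a decoy receptor of interleukin-1, had 10.6 and 12.1 FPKM in SYK-KO cells, against 2.24 and 2.01 FPKM in SYK-WT cells (log2 fold change 1.98, SE 0.12, limma adjusted p = 2.9e-05), and its neighbour IL1R1, the signalling receptor, had 7.81 and 9.13 FPKM in SYK-KO cells, against 2.13 and 2.47 FPKM in SYK-WT cells (log2 fold change 1.52, SE 0.12, limma adjusted p = 0.0001). MT2A, a metal-binding metallothionein, had 312 and 289 FPKM in SYK-KO cells, against 69.8 and 158 FPKM in SYK-WT cells (log2 fold change 1.51, SE 0.30, limma adjusted p = 0.0061), and its SYK-WT libraries differed by more than 2-fold. IL32, a cytokine-like protein, had 2.99 and 3.502 FPKM in SYK-KO cells, against 0.265 and 0.373 FPKM in SYK-WT cells (log2 fold change 1.69, SE 0.14, limma adjusted p = 0.00015).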
